A study of Zea mays with 2 samples.

Results

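Chromosome 7 of maize from 30 Mb on was taken as every row of the tables whose locus lies on chromosome 7 and starts at 30 Mb or beyond, which gave 2877 of 44119 loci. They lay at 2534 distinct positions from 30089187 to 176551141, and 646 of them shared one of 303 positions with another locus. RNA was measured in endosperm, the tissue of the kernel that stores starch and protein, at 15 days after pollination, in 1 library labelled wild type and 1 labelled with the mutant genotype opaque2. The allele of opaque2 and the maize lines that carried both genotypes are unstated in the labels. The design text speaks of triplicates, while each genotype has 1 value per locus, so differences below rest on 1 library a genotype and carry no p-value.

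Opaque2 encodes a bZIP transcription factor of the endosperm that activates genes of zeins, the storage proteins of the grain, and other genes of storage metabolism. Mutant kernels hold less alpha-zein and more lysine, and appear opaque. The gene itself lies on chromosome 7, toward the end of the chromosome that was left out here, as do alpha-zein genes of one subfamily. In maize, genes are sparse around the centromeres and dense toward the chromosome ends.

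The files name loci by position alone, and no header or label states the genome build. No position of the stretch matched a gene of the RefSeq table of assembly Zm-B73-REFERENCE-NAM-5.0 in start and end (0 of 2877 loci), so no locus below carries a gene name. For the same reason the tissue label was not checked by marker genes, and no sequence was read. Values are in FPKM, fragments scaled by transcript length and library size, without counts, and the depth of both libraries is unknown. In bulk tissue, fewer cells of a type and less RNA per cell cannot be told apart.

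Levels on chromosome 7 from 30 Mb on were close to those elsewhere in the nuclear genome. The median level was 1.48 FPKM in wild type and 1.58 FPKM in opaque2, against 1.63 FPKM in wild type and 1.59 FPKM in opaque2 on the other 9 chromosomes. In the higher library, 991 loci (34.4%) reached 5 FPKM, the floor for all ratios here, against 35.8% on the other 9 chromosomes. The stretch held 2.55% of all summed FPKM of the wild type library and 2.86% of the opaque2 library. The loci thinned out toward the middle of the chromosome and crowded toward its far end. From 7 to 27 loci of 5 FPKM or more lay in each 5-Mb window between 30 and 120 Mb, and from 15 to 100 in each window beyond 120 Mb.

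A few loci carried much of the transcript level. The 10 loci of highest mean level held 45.6% of the stretch's summed level in wild type and 51.6% in opaque2. Of these 10, 6 were higher and 4 were lower in opaque2, and 2 differed 2-fold, both higher in opaque2. Without the 10, the sums were nearly equal, with 29626 FPKM in wild type and 29605 FPKM in opaque2. The summed level of the whole stretch was 54428 FPKM in wild type and 61206 FPKM in opaque2, so its surplus in opaque2 lay in these 10 loci.

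The highest mean level belonged to a locus of 2118 bp at 120200894 to 120203011, with 7210 FPKM in wild type and 6561 FPKM in opaque2 (log2 ratio −0.14). Here and below a log2 ratio is opaque2 over wild type after adding 1 FPKM to each value. Another locus at exactly this position had 1192 FPKM in wild type and 903 FPKM in opaque2 (log2 ratio −0.40). How reads were split between loci of one position is unknown, and together both loci had 8402 FPKM in wild type and 7464 FPKM in opaque2. One more abundant locus lay 25.7 kb before them at 120173851 to 120175165, with 2290 FPKM in wild type and 1988 FPKM in opaque2 (log2 ratio −0.20). All 3 were slightly lower in opaque2, and none came near 2-fold. They summed to 10692 FPKM in wild type and 9452 FPKM in opaque2, 19.6% and 15.4% of the whole stretch. In the reference table, 2 gamma-zein genes, gz50 and gz27, are direct neighbours on chromosome 7, but whether they correspond to these loci was not determined, since the builds could not be matched. Gamma-zeins are sulfur-rich storage proteins at the periphery of the protein bodies.

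The nearest loci past the floor on either side of this abundant group were weakly expressed and differed 2-fold in opposite directions. The locus at 120105843 to 120110614 had 2.68 FPKM in wild type and 11.0 FPKM in opaque2 (log2 ratio 1.70). The locus at 120203262 to 120203757 had 5.99 FPKM in wild type and 1.70 FPKM in opaque2 (log2 ratio −1.37). Neither is among the loci chosen by rank, and both were picked after their values were seen.

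The other abundant loci were mostly short or lay alone. The second in rank, 312 bp long at 153248973 to 153249284, had 5673 FPKM in wild type and 7949 FPKM in opaque2 (log2 ratio 0.49). The locus of rank 3, only 95 bp long at 55484585 to 55484679, had 3302 FPKM in wild type and 7193 FPKM in opaque2 (log2 ratio 1.12). FPKM of so short a locus depends strongly on the length it is divided by. It weighed heavily between 30 and 120 Mb, where the sums with it were 11338 FPKM in wild type and 15288 FPKM in opaque2, and without it 8036 and 8095 FPKM. Loci of 119, 122 and 109 bp at 169911104, 171728184 and 157832919 had log2 ratios of 0.27, −0.47 and 0.19. A longer locus of 2779 bp at 165383929 to 165386707 had 904 FPKM in wild type and 1218 FPKM in opaque2 (log2 ratio 0.43), while none of its 6 nearest neighbours past the floor, 3 on each side, exceeded 36.1 FPKM.

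The largest difference among the abundant loci was at 158959755 to 158961279, a locus of 1525 bp. It had 242 FPKM in wild type and 1840 FPKM in opaque2, 7.60-fold higher in opaque2 (log2 ratio 2.92). It ranked 59 among all loci of the opaque2 library and 381 in wild type. Its surroundings did not share the difference. Its 6 nearest neighbours past the floor had log2 ratios from −0.78 to 0.21, with at most 57.6 FPKM in wild type and 39.7 FPKM in opaque2.

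**Figure D1:**
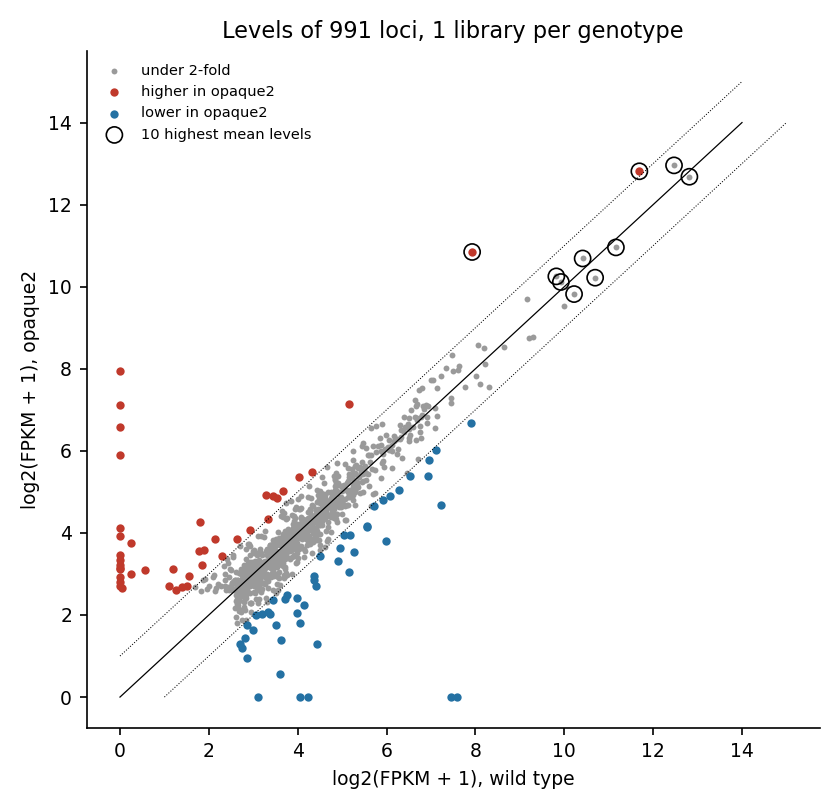
Level of each of the 991 loci past 5 FPKM in wild type (horizontal axis) and opaque2 (vertical axis), as log2(FPKM + 1), with 1 library per genotype. The solid line marks equal levels, dotted lines mark 2-fold, and circles mark the 10 highest mean levels, of which 8 lie between the dotted lines; points on the axes are loci listed at 0 in one library.

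Between the genotypes, most loci of the stretch differed little. With all loci past the 5 FPKM floor counted, those that differed were about evenly split in direction. The split changed with the floor and with filters on length and on values of 0. By a rule of size, at least 2-fold apart and the larger value 5 FPKM or more, 91 of 991 loci differed (9.18%, 95% Clopper-Pearson interval 7.46% to 11.2%). Over all loci of the tables this share was 7.91%, and on the other 9 chromosomes it was 7.59%. Intervals of shares cover counting only and treat loci as independent. In the stretch 42 loci were higher and 49 were lower in opaque2, beside 4.07% higher and 3.84% lower over all loci. Among loci above 0 in both libraries, 28 were higher and 44 lower. Among those also of 300 bp or more, 23 of 941 were higher and 37 lower. With the same 2 filters, 401 of 15104 were higher and 427 lower over all loci. At 4-fold, 20 loci of the stretch were higher (2.03% over all loci) and 12 were lower (1.19% over all loci). Together these were 3.23% of the stretch, and over all loci the share was 3.23% as well. The median log2 ratio was −0.04 (95% order-statistic interval −0.08 to −0.01), and it was −0.04 on the other 9 chromosomes. This interval also treats loci as independent and does not cover the choice of scaling or floor. The median of the stretch was 0.0039 with library totals made equal without the 6 highest loci, and 0.0030 with a floor of 20 FPKM.

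The share of the whole stretch was thus near the background, 1.21 times that of the other 9 chromosomes. One of the other chromosomes, chromosome 1, had a higher share (9.58%), and the remaining ones had between 6.34% and 8.08%. On the first 30 Mb of chromosome 7, 60 of 272 loci differed (22.1%). At the edge between these parts, the last locus past the floor before 30 Mb, starting at 29562414, had 13.7 FPKM in wild type and 12.4 FPKM in opaque2. The first beyond it, starting at 30272462, had 6.60 FPKM in wild type and 15.9 FPKM in opaque2 and differed 2-fold.

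The near-average share hid a contrast along the chromosome. From 30 to 120 Mb, 51 of 308 loci differed (16.6%, interval 12.6% to 21.2%), 25 higher and 26 lower in opaque2. From 120 Mb on, 40 of 683 loci differed (5.86%, interval 4.22% to 7.89%), 17 higher and 23 lower. The first share was 2.18 times that of the other 9 chromosomes and the second 0.772 times. The split at 120 Mb was chosen after the values were seen, so the size of the contrast is a description. With the split at 100 or 140 Mb, the shares before it were 18.8% and 13.0%, and those after it 6.38% and 5.85%.

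**Figure D2:**
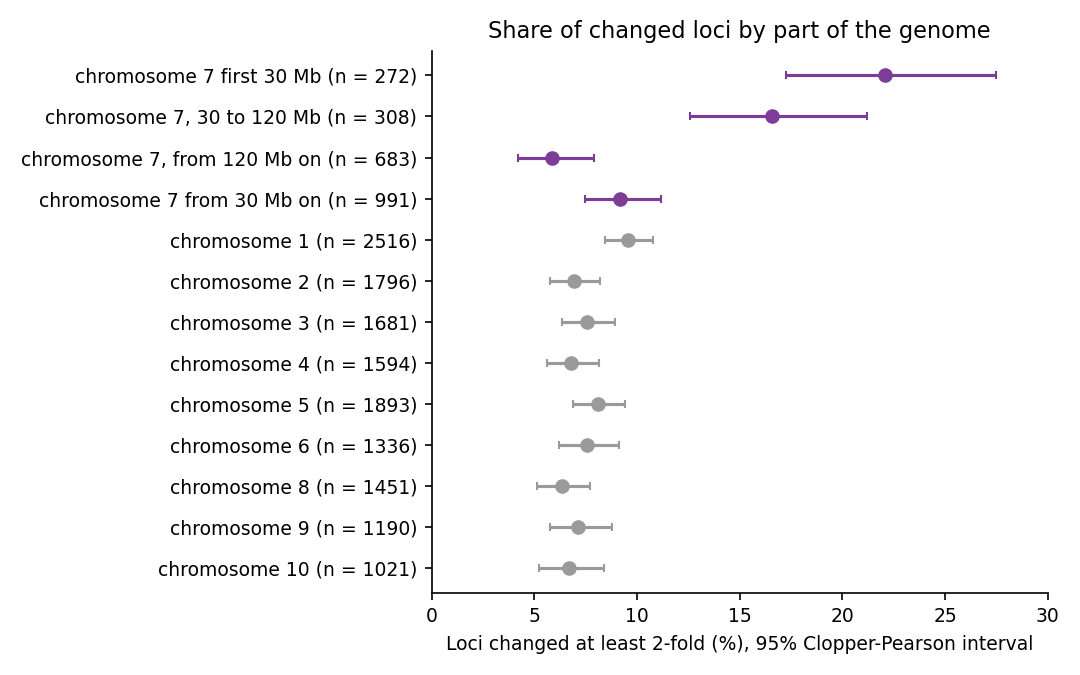
Share of loci past 5 FPKM that differed at least 2-fold (percent, horizontal axis) in parts of chromosome 7 (purple) and on each other chromosome (grey); points are shares, bars are 95% Clopper-Pearson intervals and n is the number of loci past the floor. The parts of chromosome 7 run from 22.1% in the first 30 Mb through 16.6% at 30 to 120 Mb to 5.86% from 120 Mb on, and the other chromosomes lie between 6.34% and 9.58%.

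Ratios between 30 and 120 Mb were more widely spread as a whole. The median absolute log2 ratio was 0.33 there and 0.23 from 120 Mb on, against 0.23 on the other 9 chromosomes, where single chromosomes ran from 0.21 to 0.25. Within 1.5-fold lay 66.9% of loci at 30 to 120 Mb, 84.3% of loci from 120 Mb on and 83.1% on the other 9 chromosomes. Successive stretches of 30 Mb had shares of 11.2% (12 of 107 loci), 21.8% (17 of 78), 17.9% (22 of 123) and 4.81% (13 of 270), and the end of the chromosome from 150 Mb on had 6.54% (27 of 413). The share was highest at 60 to 90 Mb. Its interval there, 13.2% to 32.6%, overlapped those at 30 to 60 Mb (5.93% to 18.8%) and 90 to 120 Mb (11.6% to 25.8%). The order of these stretches is therefore not settled by the counts, and a decline from the 30-Mb edge was not tested.

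Level, locus length and local density differ along the chromosome and were measured beside the contrast. In each class of mean level the share at 30 to 120 Mb was above that of the other 9 chromosomes. Under 10 FPKM it was 19.5% against 9.47%, at 10 to 50 FPKM it was 12.6% against 4.83%, and at 50 FPKM or more it was 21.9% (7 of 32 loci) against 12.6%, which lies within the interval of the former, starting at 9.28%. Loci shorter than 300 bp made up 6.82% of the loci at 30 to 120 Mb and 3.93% on the other 9 chromosomes. After loci under 300 bp and loci listed at 0 were left out, 34 of 284 differed at 30 to 120 Mb (12.0%) and 26 of 657 from 120 Mb on (3.96%), against 5.25% on the other 9 chromosomes and 5.48% over all loci. In 5-Mb windows with fewer than 30 loci past the floor, 53 of 346 loci of the stretch differed (15.3%), and 245 of 2846 loci on the other 9 chromosomes (8.61%). In windows with 30 or more, the shares were 5.89% and 7.34%. All 18 windows before 120 Mb held fewer than 30 loci past the floor, and 2 of the 12 beyond it did, so density and position cannot be told apart within the stretch.

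Elsewhere in the genome no equally long stretch reached this share. Of 220 overlapping stretches of 90 Mb on the other 9 chromosomes, moved in steps of 5 Mb, 0 had a share as high as 16.6%. Their median was 8.01%, and the highest was 13.4%, on chromosome 3 at 15 to 105 Mb (50 of 373 loci). Since the stretch on chromosome 7 was delimited after its values were seen, this comparison ranks it and does not test it.

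**Figure D3:**
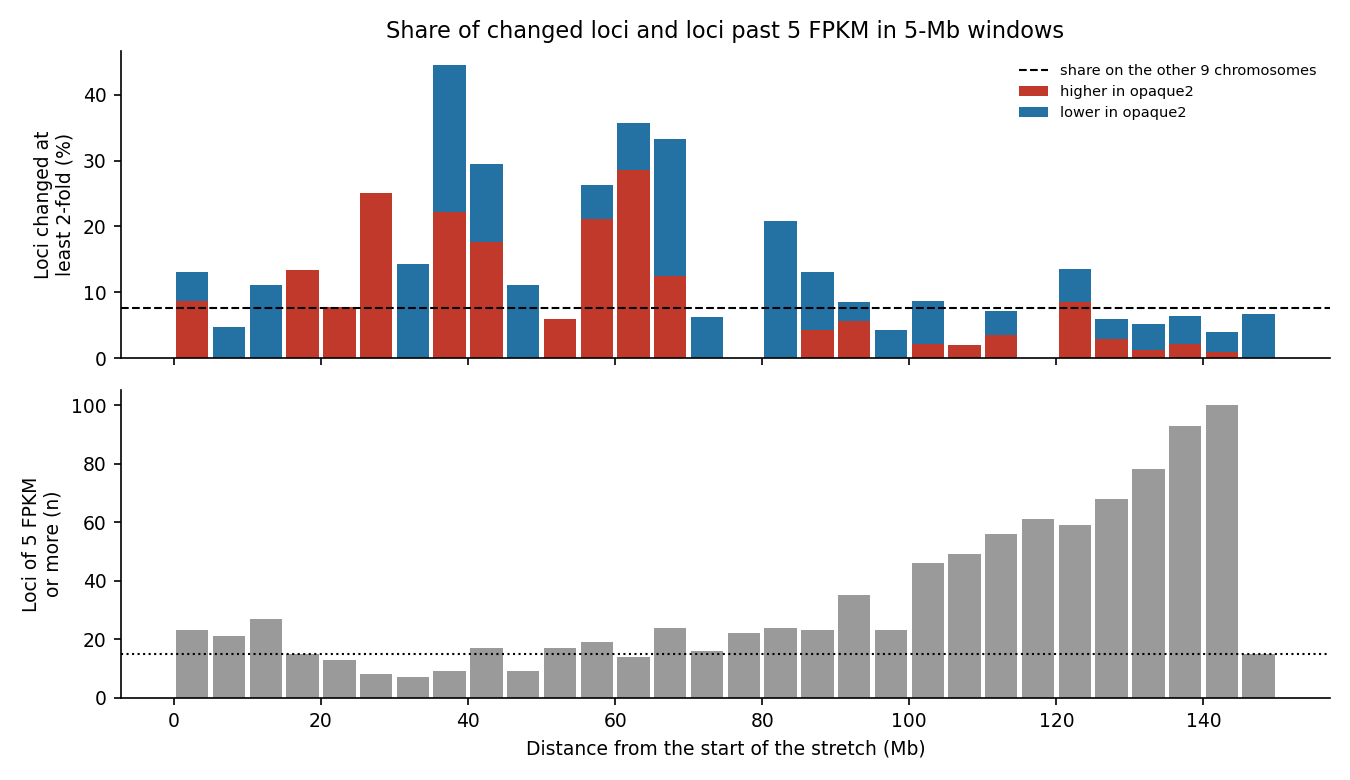
Upper panel, share of loci past 5 FPKM that differed at least 2-fold (percent) in each 5-Mb window, split into higher (red) and lower (blue) in opaque2, with the share on the other 9 chromosomes as a dashed line; lower panel, number of loci past 5 FPKM per window, with the minimum of 15 for named windows as a dotted line. The horizontal axis is the distance from the start of the stretch at 30 Mb; 14 of the first 18 windows and 3 of the last 12 exceed the dashed line. In a window of few loci 1 differing locus can be enough, as at 50 to 55 Mb (1 of 13 loci, 7.69%), so these counts depend partly on window size.

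Windows of 5 Mb with many differing loci lay in the sparse part before 120 Mb. Of 24 windows with at least 15 loci, 4 (16.7%) had over 20% of loci differing, against 9 of 324 (2.78%) on the other 9 chromosomes. The medians over windows were nearly equal, 6.90% and 6.67%. The highest share was at 95 to 100 Mb (8 of 24 loci, 33.3%, 3 higher and 5 lower), followed by 70 to 75 Mb (5 of 17, 29.4%, 3 higher and 2 lower) and 85 to 90 Mb (5 of 19, 26.3%, 4 higher and 1 lower). Windows at 105 to 110 Mb (22 loci) and 145 to 150 Mb (61 loci) had 0 differing loci. Below the minimum of 15 loci, the window at 65 to 70 Mb had 4 of 9 loci differing and that at 90 to 95 Mb 5 of 14. Both directions were found in most windows with high shares, but at 110 to 115 Mb all 5 differing loci were lower in opaque2.

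Neighbouring loci that differed the same way formed 4 runs of 3 or more, all between 30 and 120 Mb, with 14 loci at 11 positions. These are 1.41% of the loci past the floor, while the 5 runs of the other 9 chromosomes hold 26 loci, 0.180% of theirs. Without the 14 loci, 77 of 977 loci of the stretch differed (7.88%), and at 30 to 120 Mb 37 of 294 (12.6%). With loci of one position summed to 1 value, a single run was left, and runs on the other 9 chromosomes were not recounted that way.

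The shortest run, lower in opaque2, covered 4.60 kb at 97965342 to 97969944. There, 2 loci shared a position that spans 2627 bp. They had 11.0 and 11.4 FPKM in wild type and 0.474 and 1.62 FPKM in opaque2 (log2 ratios −3.03 and −2.24). The next locus, at 97969005 to 97969944, had 15.6 FPKM in wild type and 2.47 FPKM in opaque2 (log2 ratio −2.26). All values in opaque2 lay below the 5 FPKM floor and all values in wild type above it. Of the 3 nearest loci past the floor on each side, 2 differed 2-fold, one lower (log2 ratio −1.27) and one higher (log2 ratio 1.45).

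The only run higher in opaque2 lay at 91631074 to 91863042. Its first locus had 10.5 FPKM in wild type and 28.0 FPKM in opaque2, and its second had 1.64 and 5.47 FPKM (log2 ratios 1.33 and 1.29). Its last position, at 91859088 to 91863042, holds 2 loci. They had 0.194 and 0.0286 FPKM in wild type and 12.4 and 5.27 FPKM in opaque2 (log2 ratios 3.49 and 2.61). The transcripts of this position were thus close to the lower end of the values in wild type. The 3 loci past the floor beyond it had log2 ratios from −0.14 to 0.07. Of the 3 before it, 1 was the locus of 110 bp at 89993694 that was listed at 0 in wild type, and the other two had ratios of 0.05 and 0.15.

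The remaining runs were lower in opaque2. The first of them lay at 42196214 to 42301599, over 105 kb. In it, 2 loci of one 33147-bp position had 28.9 and 62.6 FPKM in wild type and 9.01 and 12.9 FPKM in opaque2. The last locus of this run had 76.2 FPKM in wild type and 31.8 FPKM in opaque2. None of their 6 nearest neighbours differed 2-fold, with log2 ratios from −0.67 to 0.97. At 113538205 to 114347612, over 809 kb, 4 loci at 4 positions were lower. One of them, 194 bp long, was listed at 15.5 FPKM in wild type and at 0 in opaque2. For the other 3, log2 ratios lay between −1.73 and −1.06. A further, more abundant locus at the last position of this run did not differ 2-fold and is counted among the neighbours. It had 28.1 FPKM in wild type and 19.2 FPKM in opaque2 (log2 ratio −0.53). Of the 3 nearest loci past the floor on each side, 1 differed 2-fold, again lower (log2 ratio −1.54), and the remaining ratios lay between −0.96 and 0.28.

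**Figure D4:**
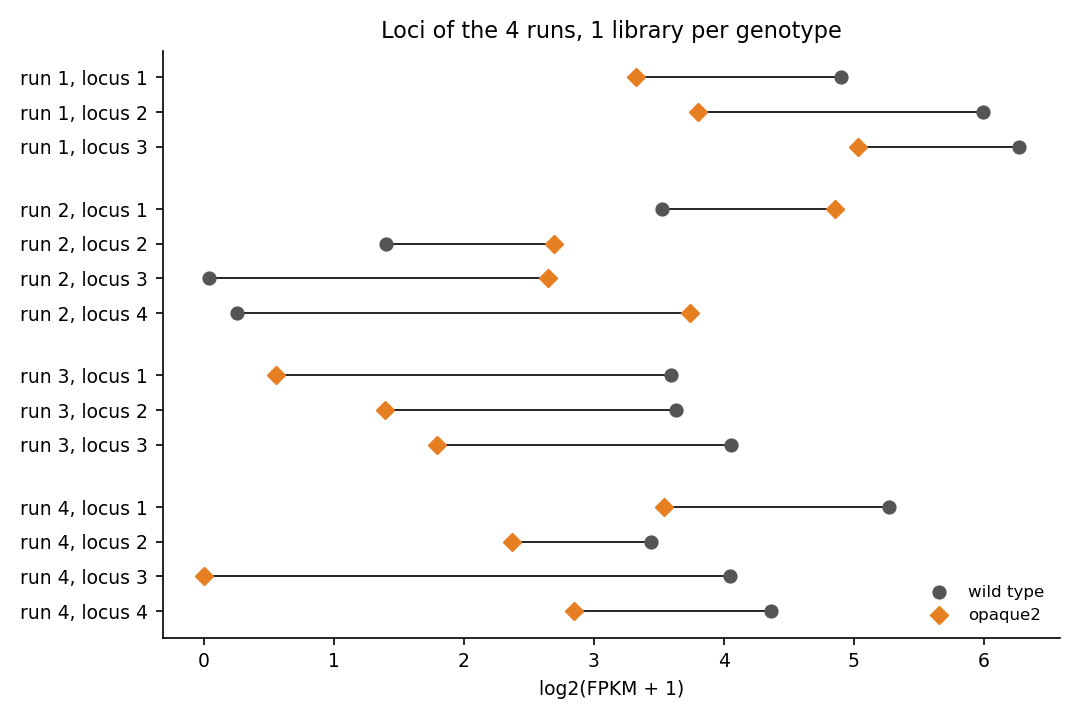
Levels of the 14 loci in the 4 runs of neighbouring loci that differed the same way, as log2(FPKM + 1) on the horizontal axis, with wild type as grey circles and opaque2 as orange diamonds, 1 library each; runs are numbered along the chromosome. Runs 1, 3 and 4 are lower in opaque2 at every locus and run 2 is higher at every locus.

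Outside the runs, the largest ratios were single loci, ranked here among those detected in both libraries and at least 300 bp long. The lowest ratio of the stretch was at 152351854 to 152354543, with 20.6 FPKM in wild type and 1.44 FPKM in opaque2 (log2 ratio −3.15). Of its 6 nearest neighbours past the floor, 1 differed 2-fold, in the other direction (log2 ratio 1.94). With a pseudocount of 5 its log2 ratio was −1.99, and that of the locus at 134970635 was −2.37. The locus at 134970635 to 134972839 had 148 FPKM in wild type and 24.6 FPKM in opaque2 (log2 ratio −2.54), and its 6 nearest neighbours had log2 ratios from −0.86 to −0.04. In the other direction, the highest ratio outside the runs was that of the locus at 158959755 described above (log2 ratio 2.92). Next, the locus at 131350356 to 131350780 had 0.191 FPKM in wild type and 6.95 FPKM in opaque2 (log2 ratio 2.74). The locus at 47354217 to 47356478 had 2.47 FPKM in wild type and 18.3 FPKM in opaque2 (log2 ratio 2.48). Neither the locus at 131350356 nor that at 47354217 had a neighbour among the nearest 6 that differed 2-fold.

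Well expressed longer loci that differed were mostly lower in opaque2. Of 119 loci of 300 bp or more that reached 50 FPKM, 12 differed 2-fold (10.1%), 2 higher and 10 lower. On the other 9 chromosomes 195 of 1996 such loci differed (9.77%), 99 higher and 96 lower. These limits were chosen after the values were seen. The 2 that were higher are the locus of 1840 FPKM described above and one at 85634082 to 85636318, with 34.4 FPKM in wild type and 139 FPKM in opaque2 (log2 ratio 1.99). Among the 10 that were lower, one of 2 loci at 98556648 to 98559891 had 121 FPKM in wild type and 40.8 FPKM in opaque2 (log2 ratio −1.55). The other had 18.9 FPKM in wild type and 10.4 FPKM in opaque2 (log2 ratio −0.80). Others of the 10 also shared a position with a locus under 2-fold. At 165096869 the log2 ratio was −1.12 and that of the other locus 0.32, higher in opaque2. At 94022619 they were −1.05 and −0.76. The locus at 102646284, also among the 10, was listed at 0 in opaque2.

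**Figure D5:**
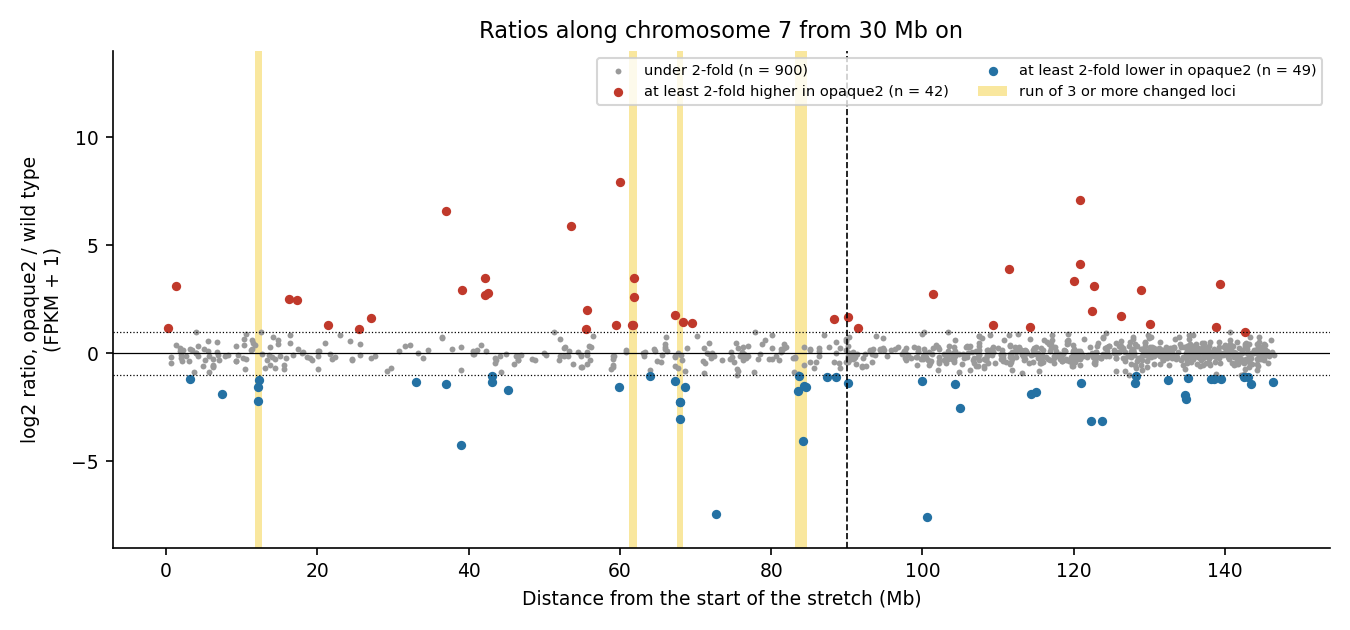
Log2 ratio of opaque2 over wild type (FPKM + 1) for each of the 991 loci past 5 FPKM against the distance from the start of the stretch at 30 Mb; red points are at least 2-fold higher in opaque2 (42), blue points at least 2-fold lower (49), grey points neither. Yellow bands mark the 4 runs and the dashed line marks 120 Mb; all 4 bands lie before it, where 51 of 308 loci differ, and beyond it 40 of 683 differ.

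Loci listed at 0 in one library made up part of the differences. A value of 0 can be a failed estimate, and folds are left out for them. Of the 91 differing loci, 5 had a value of 0 in opaque2 and 14 in wild type, and 13 of these 19 were shorter than 300 bp. The 19 are 1.92% of the loci past the floor, and over all loci the share was 1.88% (297 loci, 194 of them shorter than 300 bp). Loci listed at 0 were thus at the background over the stretch as a whole, but unevenly spread. They were 11 of 308 loci past the floor at 30 to 120 Mb and 8 of 683 from 120 Mb on. On the other 9 chromosomes they were 260 of 14478. The highest was a locus of 110 bp at 89993694 to 89993803, with 0 in wild type and 245 FPKM in opaque2. Short loci of 114 bp at 150877026 and of 119 bp at 66978336 had 0 in wild type, with 138 and 94.0 FPKM in opaque2. One of 125 bp at 130652700 had 191 FPKM in wild type and 0 in opaque2. A longer locus stood out at 102646284 to 102649093, 2810 bp long, with 174 FPKM in wild type and 0 in opaque2. Its 6 nearest neighbours past the floor had log2 ratios from −0.32 to 0.08, and the window around it, at 100 to 105 Mb, held no other differing locus among its 16.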

How the data were processed

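RNA of endosperm was measured in 1 opaque2 and 1 wild type library, grouped by the genotype label. Per the file headers, the values that the authors deposited are FPKM. Bowtie, version 0.12.2, is named per the submitters' processing notes. Neither its role nor the FPKM program, genome build, gene models or any pooling of triplicates is given in the sources used here. Starts were printed with 1 added, since 48 mitochondrial starts then equal a start in the reference table and 0 do as deposited. Both tables list the same loci.

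Log2 ratios used a pseudocount of 1. A locus differed when its values were at least 2-fold apart and the larger was 5 FPKM or more, a rule applied to the whole table. Loci were named by rank (10 highest mean levels, 5 highest and 5 lowest ratios among loci of 300 bp or more above 0 in both, 5 highest of those listed at 0 in one library), by runs, and by the 3 windows of highest share; any other named locus was picked after its values were seen. The stretch, rules and lists were chosen with earlier results of these data known. With 1 library per genotype no test was made. Alternatives changed scaling, pseudocount, floor, fold, filters and limits. Values were computed in Python 3.11.15 with pandas 2.3.3, NumPy 2.4.6 and SciPy 1.17.1, and plotted with Matplotlib 3.10.9.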

Additional observations from a re-analysis of the deposited data

How the results depend on the processing

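Against 9.18% as reported, the share of differing loci was 6.56% with a pseudocount of 5, 6.15% without a floor, 21.1% at 1.5-fold, 3.23% at 4-fold, 7.41% for loci above 0 in both libraries, 6.97% for loci of 300 bp or more and 6.38% with both filters. The ratio to the other 9 chromosomes stayed between 1.01 and 1.34 in the 18 alternatives run, lowest with a floor of 20 FPKM. The count of 91 became 177 with a floor of 1 FPKM and 177 without one (108 higher, 69 lower in each), 37 at 20 FPKM (13 higher, 24 lower), 209 at 1.5-fold, 32 at 4-fold and 60 with both filters. The share was 10.2% with a floor of 1 FPKM (8.32% over all loci) and 9.51% at 20 FPKM (9.70% over all loci). Over all loci it was 5.05% without a floor, 17.4% at 1.5-fold, 3.23% at 4-fold and 5.48% with both filters. Directions over all loci at the changed floors are not given here. The median log2 ratio was 0.0039 with equal totals without the 6 highest loci, −0.0060 after centring, and 0.0030 with a floor of 20 FPKM and again 0.0030 without a floor. At 30 to 120 Mb the share was 11.7% with a pseudocount of 5, 9.53% without a floor, 33.1% at 1.5-fold, 6.17% at 4-fold and 12.0% with both filters; from 120 Mb on it was 4.15% without a floor, 15.7% at 1.5-fold, 1.90% at 4-fold and 3.96% with both filters. Their ratios to the other 9 chromosomes lay between 1.66 and 2.48, and between 0.608 and 0.927, in the alternatives run. These and the splits at 100 and 140 Mb, and leaving out the loci of runs, were chosen after seeing the data. Runs numbered 1 to 9, with 1 at 4-fold and 1 with positions summed, against 4 as reported. Of 100 recomputed ratios of named loci, 0 reversed and 13 moved by over 1.5-fold, all with a changed pseudocount. Where values moved, the cause was not tested. No paired analysis was possible because there is 1 library per genotype. Depth is unknown, so what it limits was not measured.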

Other observations

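Loci listed at 0 were unevenly spread along the stretch. At 30 to 120 Mb 3.83% of 1070 loci had a value of 0 in opaque2 and 16.3% in wild type. From 120 Mb on, the shares were 2.38% and 8.63% of 1807 loci. On the other 9 chromosomes they were 3.13% and 11.0%, so values of 0 were more frequent in wild type throughout the genome. Median levels differed along with them, at 0.685 FPKM in wild type and 0.878 FPKM in opaque2 for 30 to 120 Mb, against 2.12 and 2.09 FPKM from 120 Mb on.

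Loci of one position did not always share a direction. At 70 positions, 2 or more loci passed the floor. At 4 of these every locus differed 2-fold and the same way, at 8 some but not every locus did, and at 0 did loci differ 2-fold in opposite directions. Without regard to size, the log2 ratios had opposite signs at 21 of the 70, among them 4 of the 8. Of 21 neighbouring pairs of loci that both differed, 13 had the same direction. Loci of one position count as neighbours here, so the 13 include pairs from the 4 positions where every locus differed the same way. Such pairs were not counted on the other chromosomes, so no agreement between neighbours is claimed.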
